A study of Homo sapiens with 4 samples.

Results

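LIN28B, HMGA1, HMGA2, IGF2BP1, IGF2BP2 and IGF2BP3 are genes of the embryo that are active again in many tumours, called oncofetal since most of them are silent or low in adult tissues, and all are known targets of the microRNA family let-7. They were chosen as a list of 6 gene symbols, and every probe set assigned to one of them alone was taken, 14 of the 35184 probe sets with a single gene. All 6 genes were measured, among 19798 genes in all. The levels came from 4 arrays of total RNA from HCT-116 dicer- cells. HCT-116 is an established line from a human colon carcinoma, and Dicer is the nuclease that releases mature microRNAs from their precursors. RNA was taken at 24 h from 2 mock-transfected samples, from 1 sample transfected at 10 nM with miR-124 whose guide strand was intact (G/P), and from 1 sample transfected at 10 nM with miR-124 whose guide strand was segmented (G10.12/P). All groups share the dicer- alteration, including the mock control, and the labels do not say how it was made or whether the line is 1 clone. The series compared the duplexes with mock to ask whether a segmented guide keeps the activity of the intact one. The labels do not state separate cultures for the mock samples, and p-values therefore reflect the spread of these arrays alone, which may be technical.

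LIN28B and let-7 hold each other down. The LIN28B protein binds let-7 precursors and blocks their maturation, and mature let-7 in turn represses messenger RNAs complementary to its 5′ end, those of LIN28B, HMGA2 and the IGF2BP genes among the best known. HMGA1 and HMGA2 are small proteins that bind the minor groove of AT-rich DNA and change chromatin shape, and the IGF2BP proteins bind messenger RNAs, IGF2 and MYC among them, and protect or localize them. miR-124 is a microRNA of neurons and belongs to another family.

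The let-7 sequences are shown because they define the list. RefSeq (GRCh38.p14) gave 9 mature let-7 and miR-98 sequences of the 5′ arm, from 12 genes, and all 9 share the seed GAGGUAG. The seed, bases 2 to 8 counted from the 5′ end, is in capitals in 4 of them, which differ outside it:
hsa-let-7a-5p: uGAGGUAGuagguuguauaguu
hsa-let-7d-5p: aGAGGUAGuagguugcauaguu
hsa-let-7g-5p: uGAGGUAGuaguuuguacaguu
hsa-miR-98-5p: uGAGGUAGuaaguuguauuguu
The same 7 bases stand at that place in 11 of 2370 mature human microRNAs of the table, 0.464%, and the other 2 are hsa-miR-4458 and hsa-miR-4500. No microRNA was measured on these arrays, so the level of let-7 in the cells is not given by them.

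Levels are log2 intensities, and a difference of 1 on this scale is a 2-fold difference. Changes were tested with limma over all 19798 genes at a Benjamini-Hochberg adjusted p of 0.05, and the brightest probe set stood for each gene. Each duplex has a single array, whose spread limma takes from the mock pair, and the number of arrays limits every value. For each gene limma weighs its own mock pair (1 degree of freedom) with a value shared over all genes (2.89 prior degrees of freedom). A p-value therefore does not rest on how close the gene's own mock values are alone. The median intensity of the arrays lay between 42.6 and 46.3. Of 11 measured colon epithelial markers, 5 lay above the median of all genes in mock cells. These were EPCAM (13.04), KRT19 (11.11), CDH1 (11.04), KRT18 (8.91) and CDX2 (7.69). The others, KRT20, VIL1, CDX1, CEACAM5, LGR5 and MUC2, markers of mature or stem-like gut epithelium, stood at 5.77 or lower. Of 16 markers of other cell types, 3 lay above the median of all genes in mock cells. Their summed intensity was 956 and 885 in the mock arrays, 2013 with the intact and 1197 with the segmented duplex, while 12 of the 16 read lower than mock with the intact duplex (median difference -0.06). The brightest of them, the collagen gene COL1A1, read 8.56 in mock cells, 9.76 with the intact and 9.21 with the segmented duplex. The smooth muscle actin gene ACTA2 read 7.18, 9.40 and 7.34, and the muscle marker DES 4.23, 4.18 and 4.05. The other fibroblast markers were dim: COL1A2 read 3.96, 3.92 and 3.64, DCN 3.97, 3.89 and 3.76, and PDGFRB 3.67, 3.54 and 4.14. The part of these genes in the results was not tested. Of 15 measured miR-124 targets from the literature, 14 fell after the intact duplex and 12 after the segmented one. Among all genes 10.4% and 2.68% passed as lower. This list was written with earlier results of these data known, so it is no independent check of the treatment. DICER1 stood at 11.24 ± 0.05 (SD, n = 2) in mock cells, 11.13 with the intact and 10.80 with the segmented duplex, a bright level beside the median gene's 6.76. Its probe set therefore does not show the labelled loss of Dicer, and where it lies relative to the alteration is not given.

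IGF2BP3 rose and HMGA1 fell with the intact miR-124 duplex. IGF2BP3 stood 2.02-fold above mock and HMGA1 1.72-fold below it, and the other 4 genes did not pass the test. The count of 2 in 6 is read beside the 24.9% of all genes that passed in this comparison, 10.4% lower and 14.5% higher, so it is near the background. With the segmented duplex 0 of the 6 passed limma's test, beside 5.99% of all genes (2.68% lower, 3.31% higher). An unadjusted p under 0.05 was found for 2 of them, HMGA2 and IGF2BP3, and for 5416 of the 19798 genes. The median log2 difference of the 6 was 0.25 with the intact and 0.15 with the segmented duplex, beside 0.02 and 0.01 over all genes. In RNA from whole cultures, fewer cells of a kind and less RNA per cell cannot be told apart.

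**Figure D1:**
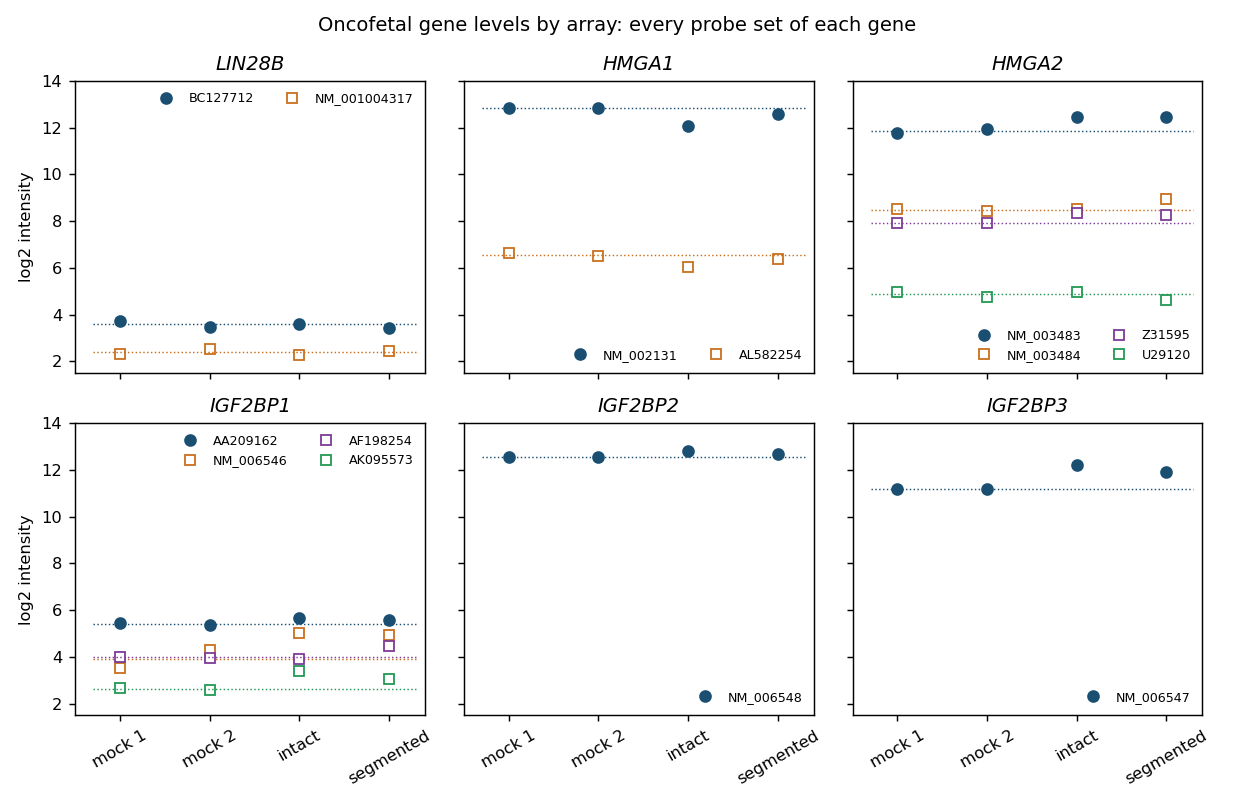
Log2 intensity (vertical axis) of the 14 probe sets of the 6 oncofetal genes in each of the 4 arrays (horizontal axis). Filled circles are the brightest probe set of a gene, open squares its other probe sets named by the sequence they were designed on, and dotted lines the mean of both mock arrays. IGF2BP3 lies at 12.20 with the intact duplex against 11.19 on both mock arrays, HMGA1 drops to 12.06, and LIN28B reaches at most 3.74 on any array.

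LIN28B, the inhibitor of let-7 maturation, was among the dim genes of the array. Its brighter probe set, designed on BC127712, read 3.74 and 3.48 in mock cells, 3.60 with the intact and 3.43 with the segmented duplex. The intact value lay between both mock values and the segmented value just below them. The other probe set, NM_001004317, read 2.30 and 2.53 in mock cells, 2.28 with the intact and 2.45 with the segmented duplex. In linear units the brighter probe set spanned 10.8 to 13.3, where the lowest intensity on any array was 2.51. The log2 difference from mock was -0.01 (limma 95% interval -0.47 to 0.45, adjusted p = 0.97) with the intact and -0.17 (-0.64 to 0.29, adjusted p = 0.561) with the segmented duplex. Detection calls were not used, and whether these values exceed background is not known; the sign of the intact difference turned with a further quantile normalization (0.022) and without mock 1 (0.12). LIN28A, the second human LIN28 gene, was also dim, at 3.66 ± 0.16 (SD, n = 2) in mock cells, 3.27 with the intact and 3.49 with the segmented duplex, and missed the threshold in both comparisons.

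HMGA1, the architectural chromatin protein gene, was bright and lower in both treated samples. It read 12.85 and 12.84 in mock cells, 12.06 after the intact duplex and 12.58 after the segmented one. Both treated samples lay below the mock range, whose SD was 0.0048 (n = 2). The difference from mock was -0.78 with the intact duplex (limma SE 0.12, adjusted p = 0.0223) and -0.27 with the segmented duplex (adjusted p = 0.26). HMGA1 kept its call with the intact duplex under all 7 alternative settings that give a test, with adjusted p from 9.06e-09 to 0.0275. The second probe set of HMGA1, designed on AL582254, was dimmer, at 6.64 and 6.50 in mock cells, 6.03 with the intact and 6.39 with the segmented duplex. It ordered the samples the same way, with a difference of -0.54 for the intact duplex that did not pass over all probe sets (limma adjusted p = 0.0608). It passed with the intact duplex under each alternative setting of the test over probe sets. HMGA1 has pseudogenes of like sequence, so its values are uncertain where probes cannot tell them apart. The pseudogene HMGA1P7 had its own probe set, which was dim. It read 3.67 and 3.52 in mock cells, 3.50 with the intact and 2.97 with the segmented duplex. Its log2 difference from mock was -0.09 after the intact and -0.63 after the segmented duplex, neither past the threshold.

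HMGA2, the relative of HMGA1 that is best known as a let-7 target, read above mock in both treated samples. Its brightest probe set, NM_003483, read 11.77 and 11.95 in mock cells, 12.44 with the intact and 12.47 with the segmented duplex. Both treated samples lay above both mock samples, which were 0.18 apart. The differences of 0.58 (limma 95% interval 0.18 to 0.99) and 0.61 (0.21 to 1.02) missed the threshold, with adjusted p = 0.0603 and 0.0946. Over the alternative settings the adjusted p ran from 6.15e-06 to 0.158 with the intact and from 8.4e-06 to 0.211 with the segmented duplex, and HMGA2 passed in both comparisons under 3 of 7 of them.

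The other 3 probe sets of HMGA2 did not all follow the brightest. The probe set on NM_003484, which RefSeq lists as a separate HMGA2 transcript, read 8.50 and 8.43 in mock cells, 8.51 with the intact and 8.93 with the segmented duplex. Its difference from mock was 0.04 with the intact and 0.47 with the segmented duplex, so only the segmented sample stood clear of the mock pair. The probe set on Z31595 read 7.91 and 7.94 in mock cells, 8.36 with the intact and 8.25 with the segmented duplex, in the direction of the brightest. The dim one on U29120 read 4.99 and 4.77 in mock cells, 4.96 with the intact and 4.64 with the segmented duplex. None of the 4 passed over all probe sets, with limma adjusted p-values from 0.0592 to 0.841 for the intact and from 0.0933 to 0.418 for the segmented duplex. With the mean of the 4 probe sets in place of the brightest, the gene's differences were 0.29 with both duplexes.

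IGF2BP3, one of the oncofetal messenger RNA binding proteins, had the largest difference of the 6 genes with either duplex by their brightest probe sets. Its single probe set read 11.19 in each mock sample, 12.20 after the intact duplex and 11.93 after the segmented one. Both treated samples lay far outside the mock pair, whose values differed by 0.0055. The difference was 1.01 with the intact duplex (limma SE 0.12, adjusted p = 0.014) and 0.74 with the segmented duplex (limma 95% interval 0.41 to 1.08, adjusted p = 0.0542), so the second missed the threshold. For the segmented duplex the adjusted p over 7 alternative settings ran from 6.94e-07 to 0.0523, and IGF2BP3 passed under 4 of them. For the intact duplex it passed under all 7, from 3.07e-09 to 0.0129.

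IGF2BP2, the family member also expressed in adult tissues, was bright and stood near its mock level. It read 12.54 and 12.55 in mock cells, 12.80 with the intact and 12.68 with the segmented duplex. Both treated values were above the mock pair. The differences, 0.26 (limma 95% interval -0.08 to 0.59, adjusted p = 0.209) and 0.13 (-0.20 to 0.47, adjusted p = 0.543), did not pass. IGF2BP2 passed with the intact duplex under 1 alternative setting, the prior variance that follows the level (adjusted p = 0.00329).

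IGF2BP1, the family member known to bind MYC and ACTB messenger RNAs, was dim on all 4 of its probe sets. The brightest, AA209162, read 5.44 and 5.36 in mock cells, 5.65 with the intact and 5.56 with the segmented duplex. The treated values lay above the mock pair by small margins, and for the differences of 0.25 and 0.16 limma gave adjusted p = 0.231 and 0.485. With the mean of the 4 probe sets the gene's differences were 0.51 and 0.53 (limma adjusted p = 0.0595 and 0.0961). After a further quantile normalization they were 0.08 and 0.04. The probe set on NM_006546 read 3.52 and 4.31 in mock cells, 5.01 with the intact and 4.94 with the segmented duplex. Its mock values were 0.79 apart, and its differences of 1.09 and 1.02 did not pass (adjusted p = 0.101 and 0.173). The dimmest, AK095573, read 2.66 and 2.59 in mock cells, 3.39 with the intact and 3.06 with the segmented duplex. It passed with the intact duplex (difference 0.77, limma adjusted p = 0.0237). Detection calls were not used, and whether such levels exceed background is not known. The one on AF198254 read 4.01 and 3.96 in mock cells, 3.91 with the intact and 4.48 with the segmented duplex, so it went the other way with the intact duplex. Over all probe sets 25.5% passed after the intact duplex and 6.92% after the segmented one, against 3 and 0 of the 14 probe sets of the 6 genes.

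By size alone, HMGA1 and IGF2BP3 stood 1.5-fold or more from each mock array in the intact sample, beside 23.2% of all genes, and IGF2BP3 in the segmented sample, beside 12.3%. The intact value lay outside the mock range for 5 of the 6 genes, against 83.8% of all genes, and the segmented value for all 6, against 79.5%. Lying outside the range of the mock pair is therefore common on these arrays.

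The 2 duplexes, both at 10 nM and 24 h, were compared directly for the 6 genes. HMGA1 was higher with the segmented than with the intact duplex by 0.52 (limma 95% interval 0.13 to 0.91, unadjusted p = 0.0215, adjusted p = 0.242). For IGF2BP3 the segmented value was lower, with a difference of -0.27 (-0.66 to 0.12, adjusted p = 0.413). For HMGA2 the difference was 0.03, with an interval from -0.44 to 0.50. The differences of LIN28B (-0.16, interval -0.70 to 0.37), IGF2BP1 (-0.09, -0.50 to 0.31) and IGF2BP2 (-0.12, -0.51 to 0.27) were within intervals of like width. None of the 6, and 0 of 19798 genes, passed limma's adjusted threshold here (0% of genes); 1 of the 6 and 3273 of all genes had an unadjusted p under 0.05. HMGA1 passed when the dimmest 40% of genes were left out (adjusted p = 0.0355) and with the trended, robust prior (0.000103). The spread in this comparison comes from the mock arrays alone, partly shared over all genes, and the intervals do not show that the duplexes act alike.

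**Figure D2:**
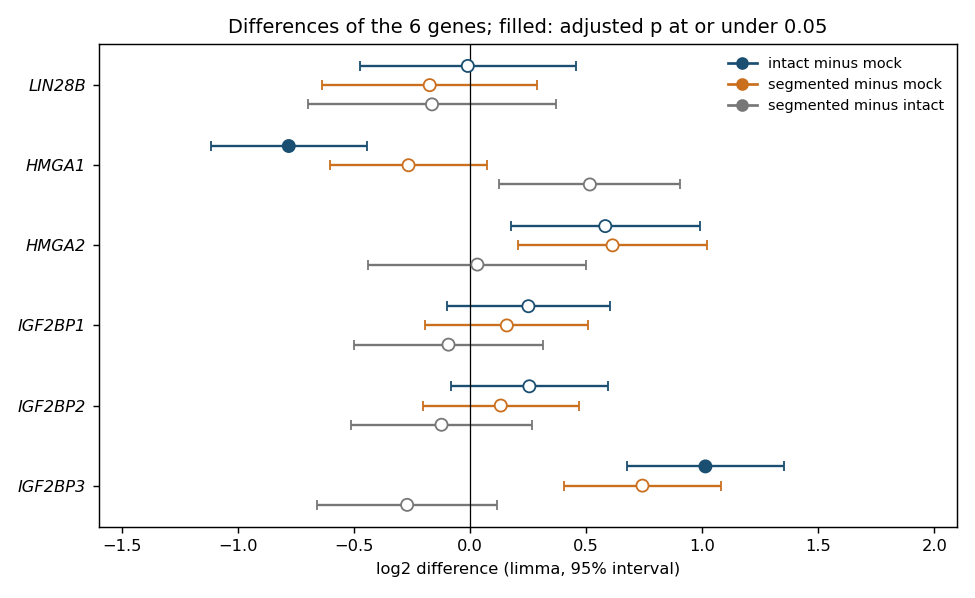
Log2 differences (horizontal axis) of the 6 genes by their brightest probe set, with limma 95% intervals. Blue is intact minus mock, orange segmented minus mock and grey segmented minus intact, and filled points passed the adjusted threshold: only HMGA1 (-0.78) and IGF2BP3 (1.01) with the intact duplex.

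Other literature targets of let-7 differed in both directions. Of 34 measured genes on that list, 7 were lower and 10 higher after the intact duplex, and 17 did not pass. After the segmented one 4 fell and 2 rose. The shares that passed, 50.0% and 17.6%, stand beside 24.9% and 5.99% of all genes, and the medians were 0.03 and 0.04. CDC25A, a phosphatase that drives cell cycle entry, fell from 10.85 ± 0.06 (SD, n = 2) to 8.13 with the intact and to 9.75 with the segmented duplex. RRM2, a subunit of ribonucleotide reductase, fell from 12.89 ± 0.16 to 10.45 with the intact duplex and stood at 12.26 with the segmented one. ARID3A, a DNA-binding protein gene, rose from 7.73 ± 0.0025 to 9.95 and 9.21, and the death receptor gene FAS from 9.18 ± 0.08 to 11.07 and 10.20.

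Of 20 measured genes of microRNA maturation and uridylation, 2 rose and 0 fell with the intact duplex, and 1 rose with the segmented duplex, so 10% and 5% passed, beside 24.9% and 5.99% of all genes. Without the dimmest 40% of genes, 4 rose and 2 fell with the intact duplex, and 3 rose and 1 fell with the segmented one. Under that setting 58.5% and 40.2% of all genes tested passed. AGO4, an Argonaute gene, rose from 6.99 ± 0.25 (SD, n = 2) to 8.62 and 8.53. PRKRA, a Dicer partner gene, rose from 10.47 ± 0.02 to 11.00 after the intact duplex (limma adjusted p = 0.0493), a call lost with arrays centred on their medians (0.0698), with the mean of its probe sets (0.0583) and in the fit over probe sets (0.0508). After the segmented duplex it stood at 11.09, which missed the threshold (adjusted p = 0.0712).

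Around the insulin-like growth factors, whose messenger RNAs gave the IGF2BP family its name, 3 genes rose and 2 fell of 18 measured with the intact duplex, and 1 rose with the segmented duplex. These shares, 27.8% and 5.56%, are near the 24.9% and 5.99% of all genes. IGF2, the fetal growth factor gene, read 8.29 and 8.13 in mock cells, 9.13 with the intact and 9.19 with the segmented duplex, and rose with both (differences 0.92 and 0.98, limma adjusted p = 0.0216 and 0.0468). Its second, dim probe set went the other way with both, and with the mean of both probe sets neither call held (adjusted p = 0.198 and 0.14). The receptor gene INSR rose by 0.97 and IGF1R by 0.82 with the intact duplex, while IGF2R, which clears IGF2, fell by 0.84; 2 of the 4 probe sets of IGF1R went the other way with the intact duplex, and their mean did not pass (adjusted p = 0.219). None of the 3 receptors passed with the segmented duplex.

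Of 18 measured transcripts known to be bound by IGF2BP proteins, 4 fell and 1 rose after the intact duplex, while 2 fell and 1 rose after the segmented one. The share of 27.8% is near the 24.9% of all genes, and 16.7% stands beside 5.99%. MYC, the growth factor-responsive transcription factor gene, fell by 1.35 with the intact and by 1.08 with the segmented duplex. The proliferation marker gene MKI67 fell by 1.27 and 0.98, with 1 of 3 probe sets the other way with the segmented duplex, where their mean did not pass (adjusted p = 0.0943), and the actin gene ACTB fell by 1.01 with the intact duplex. The member that rose was IGF2. IGF2BP proteins also read the m6A mark on messenger RNA. Of 15 measured m6A genes, 3 fell and 1 rose after the intact duplex, 26.7% beside 24.9% of all genes and so near the background. After the segmented one 0 passed limma's test, beside 5.99% of all genes. An unadjusted p under 0.05 was found for 4 of the 15, and for 5416 of the 19798 genes. CBLL1, a subunit of the m6A writer complex, fell by 1.05, the reader gene YTHDF1 by 0.75 and the writer METTL3 by 0.61, while the reader FMR1 rose by 0.80; YTHDF1 did not pass with the mean of its probe sets (adjusted p = 0.0939).

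Other high mobility group genes changed in both directions. Of 10 measured, 2 fell and 3 rose after the intact duplex, 50.0% beside 24.9% of all genes. After the segmented one 0 passed limma's test, beside 5.99% of all genes. An unadjusted p under 0.05 was found for 4 of the 10, and for 5416 of the 19798 genes. HMGN4, a nucleosome-binding protein gene, fell by 1.5 and the histone chaperone gene SSRP1 by 0.83, while HMGB3 rose by 0.91 and HMGN5 by 0.84. Of 13 genes reported downstream of HMGA proteins, 6 fell and 0 rose after the intact duplex, while 3 fell after the segmented one (46.2% and 23.1%, beside 24.9% and 5.99% of all genes), with medians of -0.45 and -0.28. The cyclin gene CCNE2 fell by 3.22, the transcription factor gene E2F1 by 2.23 and CCNA2 by 1.22 with the intact duplex, and SNAI2, which is also on the miR-124 target list, by 0.96.

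Among 14 measured oncofetal and embryonic genes outside the 6, 4 rose and 0 fell with the intact duplex and 3 rose with the segmented duplex. The shares of 28.6% and 21.4% stand beside 24.9% and 5.99% of all genes (14.5% and 3.31% higher). The first is near the share in either direction and above the share that passed as higher. NANOG, a pluripotency factor gene with pseudogenes of like sequence, rose from 5.47 ± 0.06 (SD, n = 2) to 7.12 and 6.53. AFP, the fetal serum protein gene, rose from a dim 3.72 ± 0.12 to 4.96 and 4.88. IGF2 rose as given above, and TPBG, an oncofetal surface antigen gene, rose by 0.75 with the intact duplex, which the mean of its probe sets did not pass (adjusted p = 0.0611). Several genes stand on more than 1 of these lists, IGF2 on 3 of them.

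**Figure D3:**
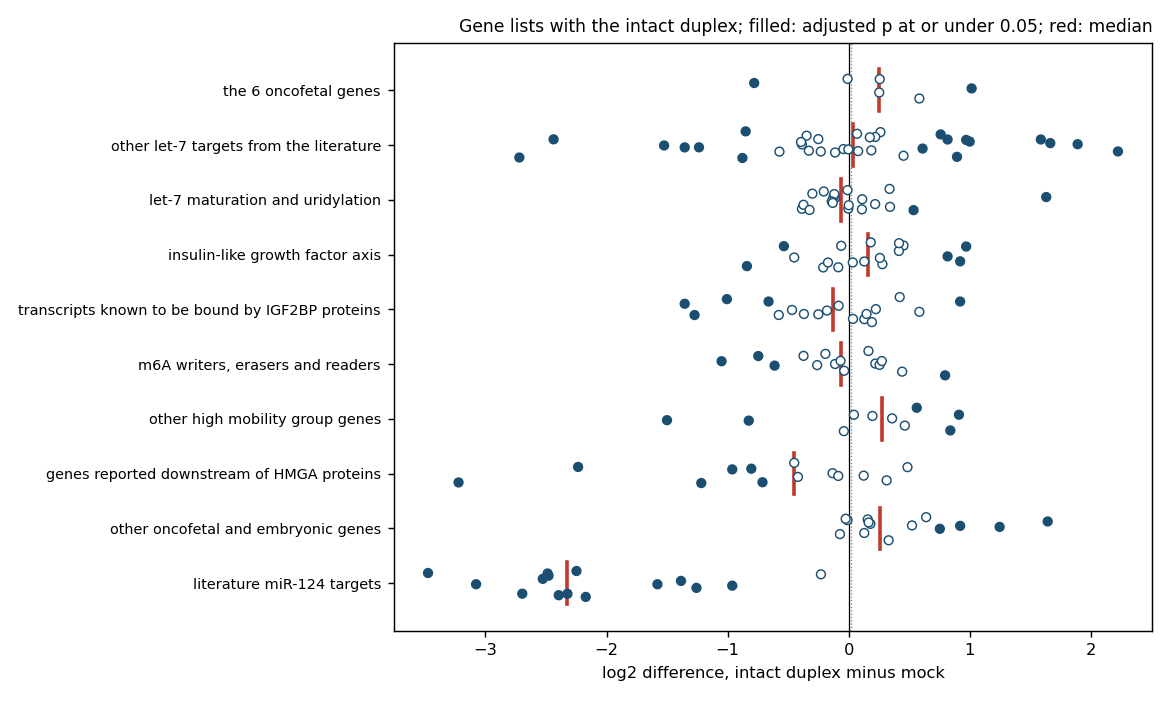
Log2 difference of the intact duplex from mock (horizontal axis) for each measured gene of 10 lists (rows, vertical position within a row has no meaning). Filled points passed limma's adjusted threshold, red bars are medians and the dotted line is the median of all genes, 0.02. The 6 oncofetal genes have a median of 0.25, and the miR-124 targets of the literature -2.32.

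The genes whose pair of differences (intact minus mock, segmented minus mock) lay nearest to a member were PARP1 (-0.77, -0.27) and TIMM17A (-0.79, -0.26) for HMGA1, CIB2 (1.02, 0.73) and C10orf95-AS1 (1.02, 0.73) for IGF2BP3, and H1-10 (0.58, 0.61) and NUDT16L2P (0.58, 0.60) for HMGA2. Likeness was the Euclidean distance over these log2 differences of 3 conditions, among 9898 or 9899 genes brighter than the median. Within a distance of 0.1 lay 83 genes for HMGA1, 99 for IGF2BP3 and 91 for HMGA2. For LIN28B the nearest were CPSF1 and C16orf74, for IGF2BP1 ZRANB1 and SEC61A1, and for IGF2BP2 CHID1 and RTRAF, with 226, 532 and 501 genes within that distance.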

How the data were processed

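The authors' deposited intensities, linear and 1 per probe set in each sample, were made with RMA (background correction, quantile normalization, summarisation) per the submitters' processing notes; version and genome build are not given in the sources used here. Quantile normalization removes a change shared by most genes. The log2 of each intensity was taken without a pseudocount. Gene names come from GEO's platform annotation, with symbols updated by Entrez identifier to RefSeq GRCh38.p14 (35134 matched, 50 did not); 374 probe sets with several genes and 16819 not listed were left out. limma 3.58.1 (R 4.3.3) fitted a mean per group over 4 arrays, per gene (brightest probe set) and per probe set. The fit had 1 residual degree of freedom and, per gene, 2.89 prior degrees of freedom. A run on simulated data drew the same spread for all 4 arrays from limma's own prior. It therefore cannot check whether the mock spread holds for the duplex arrays. The genes named were all 6 members and the 2 nearest genes per member. From each list, up to 4 genes with the largest intact difference past the threshold were named. Other colon markers, DES, COL1A2, DCN, PDGFRB, LIN28A, DICER1 and HMGA1P7 were named outside this rule, after their values were seen. The members and lists were chosen with earlier results of these data known. Sequences are RefSeq's.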

Additional observations from a re-analysis of the deposited data

How the results depend on the processing

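The members' log2 differences were recomputed under 9 alternatives, giving 147 values. Of these, 130 were counted as unchanged, those without a mock array included. Leaving out 1 of 2 mock arrays always moves a difference by less than the mock SD, which was the limit used. The label of those values was therefore fixed unless a called gene changed sign, and shows no stability. LIN28B with the intact duplex went to 0.12 without mock 1 and was still counted as unchanged. The rest of the 130 kept their direction and side of the threshold. A further 14 passed where they had not, and 3 more changed sign, none of them past a threshold. These were LIN28B with the intact duplex after a further quantile normalization (0.022), and, with the mean of all probe sets, LIN28B (0.0056) and IGF2BP1 (0.018) between the duplexes. The 2 members called with the intact duplex became 4 with the trended, robust prior. They became 3, with HMGA2, without the dimmest 40% of genes and also with 16 added to the intensity. The 0 called with the segmented duplex became 2 without the dimmest 40% of genes, 3 with the trended prior, 1 with the mean of all probe sets and 2 with 16 added to the intensity. The 0 called between the duplexes became 1, HMGA1, without the dimmest genes and 1 with the trended prior. Of 14 member probe sets, the 3 called with the intact duplex became 4 after a further quantile normalization and 4 with arrays centred on their medians. They became 5 without the dimmest 40%, 8 with the trended prior and 6 with 16 added. The 0 with the segmented duplex became 1 after quantile normalization and 3, 5 and 3 under those settings, and the 0 between the duplexes became 1 without the dimmest and 1 with the trended prior. Shares of all probe sets called under these settings are not given here. Leaving out the dimmest changes which genes are tested, and LIN28B was then not among them. All genes called rose too. Of 19798 genes, the trended prior called 7809 in place of 4937 with the intact and 5415 in place of 1186 with the segmented duplex. Between the duplexes it called 2412 in place of 0. With 16 added the counts were 7022, 4279 and 1138. Without the dimmest genes they were 6950, 4781 and 1850 of only 11879 genes tested (58.5%, 40.2% and 15.6%), beside 24.9%, 5.99% and 0% of 19798. The cause was not tested. Without mock 1 or mock 2 no test is possible, since no residual degree of freedom is left; IGF2BP3 was then 1.01 and 1.02 and HMGA1 -0.78 and -0.78 with the intact duplex, and HMGA2 0.49 and 0.67. Of the counts on the other lists, 4 of 44 moved by over 1.5 times with arrays centred on their medians and 27 of 44 without the dimmest genes. No paired analysis was possible because each duplex has 1 array and the labels give no shared replicate numbers.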
